A study of Homo sapiens with 4 samples.

Results

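The genes described here are the metallothioneins and their zinc response partners, 9 genes fixed by symbol: 7 metallothioneins (MT1A, MT1E, MT1F, MT1G, MT1M, MT1X and MT2A), the transcription factor gene MTF1 and the zinc exporter gene SLC30A1. All 9 are among the 23228 genes listed by symbol in the count tables, and 6 of them (MT1E, MT1M, MT1X, MT2A, MTF1 and SLC30A1) passed the filter on low counts that left 13546 genes for testing. The samples were ES2 cells, an established line of human ovarian cancer. They received either vehicle or liquiritigenin (Liq), a flavanone from licorice that the study uses to activate estrogen receptor beta (ERβ). Cells were kept in phenol red-free medium with charcoal-treated serum, the exposure lasted 24 h in both groups, and the Liq dose was 100 μM by the methods of the study. There were 2 RNA-seq libraries per group from this 1 cell line. The labels do not say whether the duplicates were separate cultures, so the p-values measure the spread between these samples, which may be technical.

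Metallothioneins are small, cysteine-rich proteins that hold zinc and copper and bind toxic metals such as cadmium. When free zinc rises, the MTF1 protein moves to DNA motifs called metal response elements and switches on metallothionein genes together with SLC30A1, whose product carries zinc out through the plasma membrane. Metallothionein genes also respond to glucocorticoids and to oxidative stress, and in tumor cells their levels have been studied in relation to cisplatin. The human MT1 and MT2 genes sit side by side on chromosome 16.

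Of the 6 tested genes, SLC30A1 and MT1E rose with Liq, by 1.45-fold and 1.43-fold. MT2A, the most highly expressed metallothionein in these cells, was at 0.93 of its vehicle level, a difference that did not pass the test, and neither did those of MT1X, MT1M and MTF1. A gene was called changed at an adjusted p-value under 0.05 with a fold change of at least 1.5, and by that rule 0 of the 6 were called (edgeR's quasi-likelihood test with Benjamini-Hochberg adjustment over all tested genes), against 6.45% of all tested genes (4.29% upward and 2.16% downward). DESeq2 with the same thresholds also called 0, and so did edgeR with the unadjusted p-value, where the share of all tested genes was 7.85%. With the adjusted p-value alone, 2 of the 6 passed, both upward, and DESeq2 gave 2 as well. The unadjusted p-value was under 0.05 for the same 2, against 36.1% of all tested genes. The share of all tested genes that passed the adjusted p-value was 24% (12.6% upward and 11.3% downward), and 17.6% with DESeq2, so 2 of 6 is not far from the background.

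Each library held 34573053 to 48933893 reads on genes, at which 3 counts correspond to 0.0613 to 0.0868 CPM (counts scaled to 1000000 reads on genes). These floors, and the intervals given later, cover counting error only. Of each library's tally, 35.63% to 36.23% was listed as not uniquely aligned and was not counted on genes. Whether that line holds reads or alignments is not given, so the share of reads lost is not known. With Liq, 874 of all tested genes were called changed, 581 upward and 293 downward (357 and 386 when offsets followed the expression level). The libraries showed VIM at 230451 to 312656 counts and FN1 at 249676 to 345605, and of the 5 epithelial markers CDH1 had 0 counts and EPCAM and KRT19 1 to 3, while KRT8 had 871 to 1257 and KRT18 5996 to 8387. The ovarian marker genes WT1 and PAX8 had 98 to 181 and 12 to 49 counts, MUC16 had 0 or 1, and NAPSA had 1 to 8. Both WT1 (log2 fold change -0.68, edgeR adjusted p = 0.00285) and PAX8 (-1.34, edgeR adjusted p = 0.00214) were called lower with Liq, and their part in the results on zinc response genes was not tested. Of the leukocyte, endothelial and red blood cell markers, CDH5 was the only one above 11 counts, at 1712 to 2239. ESR2, which encodes ERβ, was counted 4 and 7 times with vehicle and 5 and 14 times with Liq.

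The upstream sequences of 3 genes are shown because metal response elements are the motif through which the MTF1 protein acts and because MT2A, MT1X and SLC30A1 differed in how many they hold. They are the 250 bases before each gene start in the RefSeq promoter table of GRCh38.p14, which held 4 of the 9 genes (MT1X, MT2A, MTF1 and SLC30A1). Each was found at 1 place in GRCh37, and the coordinates are of that match: chr16:56642246-56642495 on the plus strand for MT2A, chr16:56716132-56716381 on the plus strand for MT1X and chr1:211752504-211752753 on the minus strand for SLC30A1. They are written 5′ to 3′ along the gene's strand, with the metal response element core (TGCACNC or TGCGCNC on either strand) in capitals.
MT2A: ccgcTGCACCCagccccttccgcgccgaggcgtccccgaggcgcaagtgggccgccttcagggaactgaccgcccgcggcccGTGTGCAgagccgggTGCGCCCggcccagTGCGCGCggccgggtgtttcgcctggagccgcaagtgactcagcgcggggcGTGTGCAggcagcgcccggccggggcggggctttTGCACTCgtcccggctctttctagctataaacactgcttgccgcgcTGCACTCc
MT1X: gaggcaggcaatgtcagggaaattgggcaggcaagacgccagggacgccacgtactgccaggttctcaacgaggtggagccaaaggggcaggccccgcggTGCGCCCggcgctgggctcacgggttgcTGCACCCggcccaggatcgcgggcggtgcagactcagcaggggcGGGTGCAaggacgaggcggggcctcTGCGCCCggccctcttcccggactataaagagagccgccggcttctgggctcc
SLC30A1: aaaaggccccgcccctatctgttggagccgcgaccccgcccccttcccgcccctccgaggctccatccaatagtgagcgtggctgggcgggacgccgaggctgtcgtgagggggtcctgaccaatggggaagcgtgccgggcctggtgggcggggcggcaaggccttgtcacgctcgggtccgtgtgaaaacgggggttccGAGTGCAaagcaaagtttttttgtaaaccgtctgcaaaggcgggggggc

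The core occurred 7 times in the MT2A window, 4 times in the MT1X window, 1 time in the SLC30A1 window and 0 times in that of MTF1. Of the 35116 promoters in the table cut to the same 250 bases, 24.8% held at least 1 core, 0.37% held at least 4 and 0.0313% (11 promoters) held at least 7. The core of the antioxidant response element, the motif of the oxidative stress factor NRF2 (TGACNNNGC on either strand), occurred 1 time each in MT2A, MT1X and SLC30A1 and in 10.9% of all promoters at least once. In MT2A this match, from -104 to -96 relative to the start, overlaps a match to the AP-1 site (TGANTCA), which 6.57% of all promoters held. A match to these letters is a description of the sequence, and binding was not measured here. The log2 fold change was -0.10 for MT2A with 7 cores, 0.27 for MT1X with 4, 0.53 for SLC30A1 with 1 and 0.05 for MTF1 with 0. MT1E had no window in the promoter table, and a relation between cores and change was not tested.

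**Figure D1:**
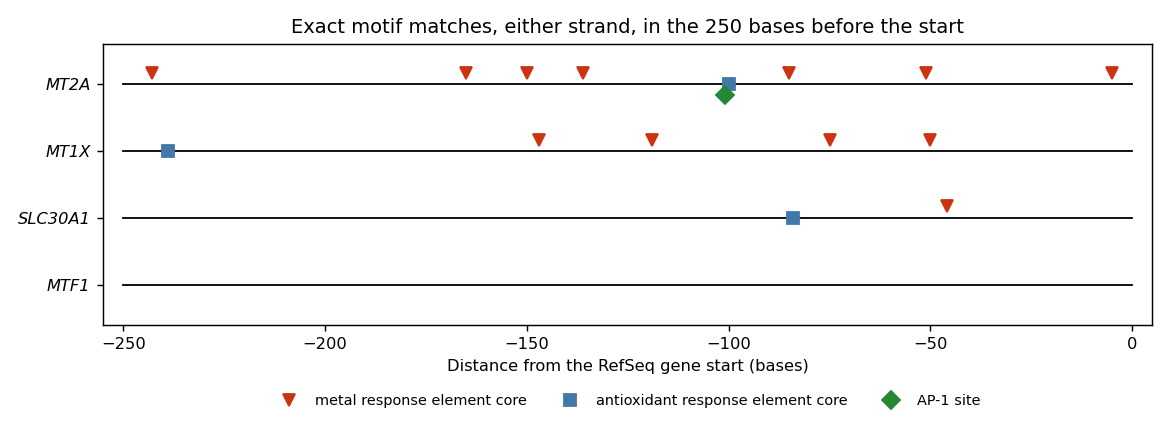
Positions of exact motif matches in the 250 bases before the gene start of MT2A, MT1X, SLC30A1 and MTF1 (x axis, distance from the RefSeq start in bases). Triangles mark metal response element cores (7, 4, 1 and 0), squares the antioxidant response element core and the diamond the AP-1 site.

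The 7 metallothionein genes of the set lie from MT2A (chromosome 16 from 56642496 to 56643409, GRCh37, GENCODE annotation) to MT1X (56716382 to 56718108), all on the plus strand except MT1G. Since their transcripts are short and differ in length, their levels were set side by side here as CPM per kilobase of the canonical GENCODE transcript. In the vehicle samples MT2A stood at 727 ± 41 and MT1E at 171 ± 7 CPM per kilobase (SD, n = 2). MT1X followed at 13.5 ± 1.1 CPM per kilobase. MTF1 was at 3.87 ± 0.013 and SLC30A1 at 2.95 ± 0.043 CPM per kilobase, and these groups of values did not overlap. With Liq the last 2 changed places, with SLC30A1 at 4.27 ± 0.22 and MTF1 at 4.01 ± 0.012 CPM per kilobase. The other metallothioneins were barely detected, with MT1M at 0.535 ± 0.28 and MT1F at 0.126 ± 0.18 CPM per kilobase in vehicle, which rest on 17 and 4 counts over both samples.

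MT1E (chromosome 16 from 56659387 to 56661024), which encodes one of the MT1 isoforms, was counted 5406 and 4646 times with vehicle and 6930 and 8618 times with Liq. Scaled by the TMM method, these were 131.5 and 124.1 CPM in vehicle and 194.9 and 171.7 CPM with Liq. Both Liq samples lay above both vehicle samples. The mean rose from 128 ± 5.22 to 183 ± 16.4 CPM (SD, n = 2), with a log2 fold change of 0.52 (SE 0.08, edgeR adjusted p = 1.31e-05), which is under 1.5-fold. Without Liq replicate 2 the log2 fold change was 0.61, past 1.5-fold, so that 1 library decides on which side of that threshold MT1E falls.

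SLC30A1 (chromosome 1 from 211744910 to 211752503, minus strand) had 708 and 658 counts with vehicle and 861 and 1309 with Liq. In CPM these were 17.22 and 17.58 in vehicle and 24.21 and 26.08 with Liq, again without overlap. The zinc exporter gene rose from 17.4 ± 0.252 to 25.1 ± 1.32 CPM (SD, n = 2), with a log2 fold change of 0.53 (SE 0.10, edgeR adjusted p = 0.000197). Across all alternatives run, its log2 fold change lay between 0.48 and 0.58 and passed the adjusted p-value each time.

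MT2A, usually the most abundant isoform in human cells, had 12465 and 10470 counts in vehicle and 10703 and 12113 with Liq. The TMM-scaled values were 303.2 and 279.7 CPM against 301 and 241.3 CPM. The groups overlapped, with Liq replicate 1 between the vehicle samples and Liq replicate 2 below both. The log2 fold change was -0.10 (SE 0.08, edgeR adjusted p = 0.371). Its sign rested on single libraries, since it was 0.05 without Liq replicate 2 and -0.27 without Liq replicate 1, where it passed the threshold (edgeR adjusted p = 0.00327).

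MT1X, another MT1 isoform, had 236 and 192 counts with vehicle and 254 and 306 with Liq, or 5.74 and 5.129 CPM against 7.143 and 6.097 CPM. Both Liq samples lay above both vehicle samples, as they did for 31.5% of all tested genes (both were below in 30.2%), but the log2 fold change of 0.27 (SE 0.14) did not pass the test (edgeR adjusted p = 0.146). Without Liq replicate 2 it was 0.39 and passed (edgeR adjusted p = 0.0459). MTF1 (chromosome 1 from 38275246 to 38325264), the gene of the zinc-sensing factor itself, had 30.65 and 30.8 CPM in vehicle and 31.89 and 31.76 CPM with Liq. The Liq values were the higher ones, but by a log2 fold change of only 0.05 (SE 0.09, edgeR adjusted p = 0.723).

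**Figure D2:**
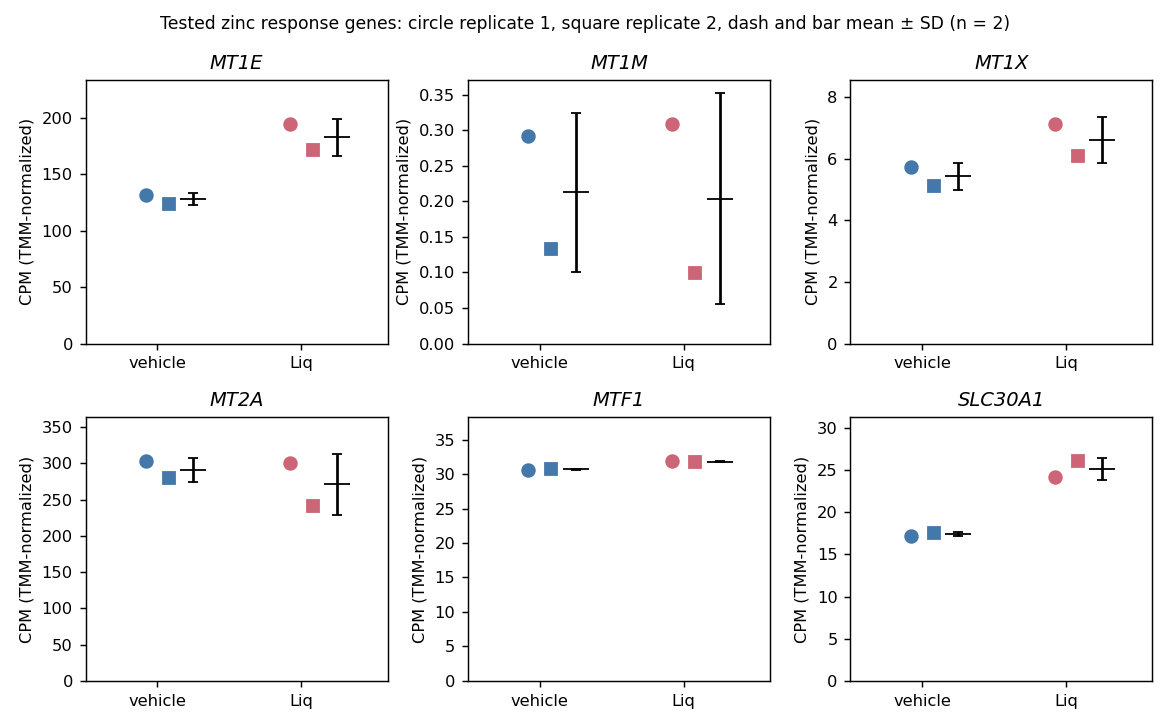
TMM-normalized CPM (y axis, from 0 in each panel) of the 6 tested genes in the vehicle and Liq samples. Circles are replicate 1 and squares replicate 2, with the mean and SD (n = 2) to the right. MT1E, MT1X, MTF1 and SLC30A1 have both Liq samples above both vehicle samples, least in proportion for MTF1, while MT1M and MT2A overlap.

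MT1M had 12 and 5 counts in vehicle and 11 and 5 with Liq, and its log2 fold change of -0.20 (SE 0.60, edgeR adjusted p = 0.848) gives no direction. It turned to 0.49 without vehicle replicate 1 and to 0.51 without Liq replicate 2. The other 3 metallothioneins did not pass the filter on low counts. MT1F had 0 and 4 counts with vehicle and 7 with Liq in each sample, and when all genes with at least 1 count were tested it did not pass (edgeR adjusted p = 0.285). MT1G had 1 count in each vehicle sample and 0 in both Liq samples. MT1A had 0 counts in all 4 libraries, so that it was not detectable at this depth. Among metallothionein genes and pseudogenes outside the 9, 8 are in the tables and 0 passed the filter: MT1L and MT1JP had at most 1 count in any library, and MT1B, MT1H, MT1DP, MT1IP, MT3 and MT4 had 0.

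Reads of 100 bases that fit several places were not counted, which matters for genes this alike. Of the 100-base windows of each canonical transcript, 100% had no second exact copy in the GRCh37 genome or in the GENCODE transcripts for MT1A, MT1F, MT1G, MT1M, MT1X, MT2A and SLC30A1, 99.8% for MTF1 and 95.7% for MT1E. When copies with up to 2 mismatches also counted as second places, the unique share fell to 75.8% for MT2A, 82.6% for MT1X and 83.2% for MT1E. It stayed at 100% for MT1A, MT1F and MT1M, 3 of the genes with the lowest counts, and was 92.6% for MT1G. For MT1X, GENCODE lists an overlapping noncoding gene on the same strand, and reads in such an overlap are dropped if the annotation used for counting, which the sources used here do not name, holds it.

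**Figure D3:**
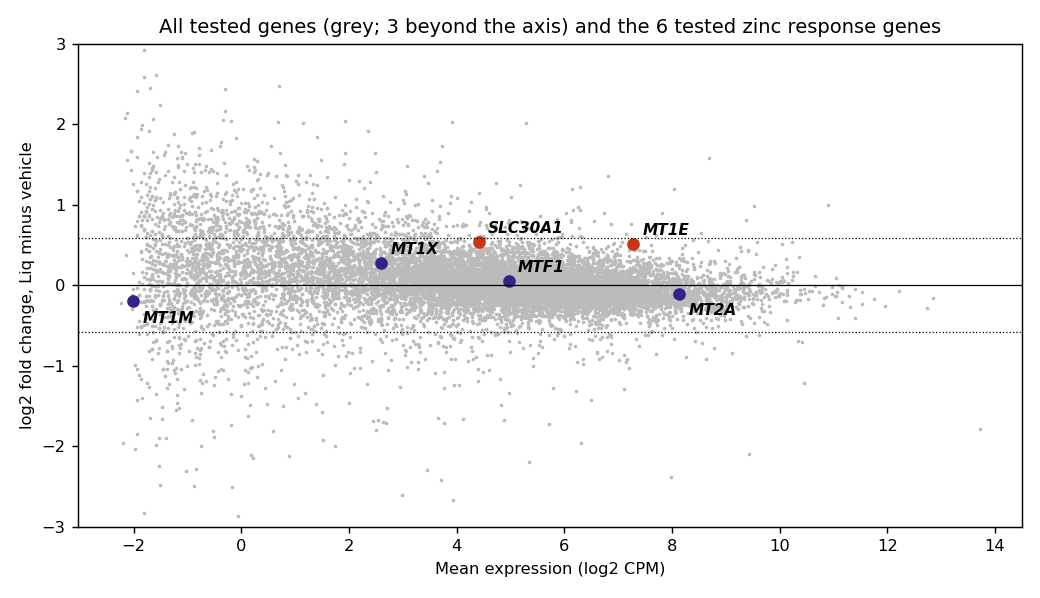
Log2 fold change (y axis, Liq minus vehicle) against mean expression (x axis, log2 CPM) for all 13546 tested genes in grey, with the 6 tested zinc response genes labelled. MT1E and SLC30A1 (red, adjusted p under 0.05) sit just under the dotted line at 1.5-fold, and MT1M lies at the low end of the expression range, where the scatter of all genes is widest.

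As a family, the metallothioneins were also described by their summed level and by how the counts were divided among them. The 7 genes together gave 440.7 and 409.2 CPM with vehicle and 503.5 and 419.4 CPM with Liq. The groups overlapped, and the means of 425 ± 22.3 and 461 ± 59.5 CPM (SD, n = 2) did not differ beyond their spread (exact permutation test, two-sided p = 0.6667). With 2 samples against 2, such a test cannot go below 0.3333. Scaled by library size alone, the means were 414 ± 18.6 and 474 ± 62.1 CPM (SD, n = 2) and the groups did not overlap (exact permutation test, two-sided p = 0.3333), so the overlap depends on the scaling.

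MT1E made up 29.8% (95% Wilson interval 29.2 to 30.5) and 30.3% (29.6 to 31.1) of these counts with vehicle. With Liq its share was 38.7% (38 to 39.4) and 40.9% (40.3 to 41.6). The share of MT2A was 68.8% and 68.4% with vehicle and 59.8% and 57.5% with Liq. MT1X held between 1.25% and 1.45% in every library. With Liq the MT1E share was thus higher and the MT2A share lower than in either vehicle library. These genes held nearly all of the counts, so the lower MT2A share follows from the higher MT1E share and is not a separate result. The intervals of MT1E did not overlap between the groups, but they cover counting error only and do not measure the spread between samples. These shares, and the ratios below, are of counts and were not divided by transcript length (746 bases for MT1E, 401 for MT2A and 404 for MT1X).

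Ratios within a library do not depend on how libraries are scaled. There were 0.434 and 0.444 MT1E counts per MT2A count with vehicle and 0.647 and 0.711 with Liq, which is 1.55-fold more. MT1X counts per MT2A count were 0.0189 and 0.0183 with vehicle and 0.0237 and 0.0253 with Liq, 1.31-fold more. MT1E counts per MT1X count were 22.9 and 24.2 against 27.3 and 28.2, and SLC30A1 counts per MT2A count were 0.0568 and 0.0628 against 0.0804 and 0.108. None of the 4 ratios, which share genes, overlapped between the groups. For single genes, the CPM did not overlap in 31.5% (Liq above) and 30.2% (Liq below) of all tested genes. How often ratios of gene pairs do not overlap was not counted. Each ratio had the smallest p-value that the design allows (exact permutation test, two-sided p = 0.3333, adjusted over the 4 ratios also 0.3333), which cannot show a difference at 2 samples against 2.

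**Figure D4:**
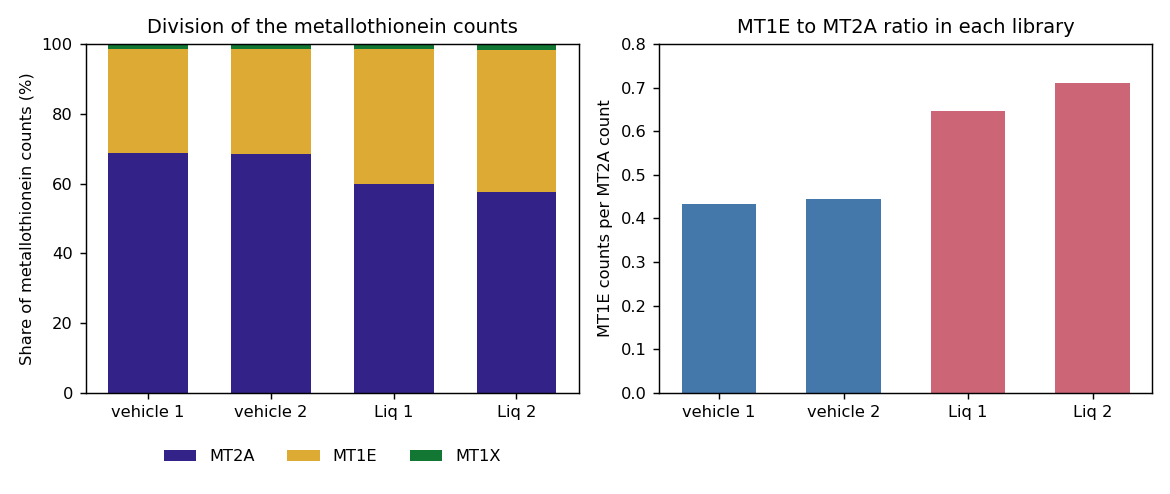
Left, the share of all counts on the 7 metallothionein genes (y axis, percent) that fell on MT2A, MT1E and MT1X in each library. Right, MT1E counts per MT2A count in each library, at 0.434 and 0.444 with vehicle and 0.647 and 0.711 with Liq.

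The other genes of zinc transport were compared as fixed lists, described by their counts beside all genes, whose median log2 fold change was 0.01. Among all tested genes 6.45% were called, 12.6% passed the adjusted p-value upward and 11.3% downward, and 36.1% had an unadjusted p-value under 0.05. Of the 9 other exporters of the SLC30 family, 5 were tested. SLC30A4, which loads zinc into vesicles, was the 1 called, at 4.5 and 4.594 CPM with vehicle and 6.805 and 6.994 with Liq. Its log2 fold change was 0.60 (SE 0.13, edgeR adjusted p = 0.00157), which is 1.52-fold, and it was 0.49 with offsets along the expression level and 0.58 without Liq replicate 2, both under 1.5-fold. SLC30A7, an exporter of the secretory pathway, was at -0.20 and SLC30A6 at 0.14 on the log2 scale, and neither passed the test. The median log2 fold change of the 5 was 0.03. Of the 14 importers of the SLC39 family, 11 were tested and 0 were called by edgeR or by DESeq2 (4 had an unadjusted p-value under 0.05). SLC39A11 passed the adjusted p-value upward (log2 fold change 0.43, edgeR adjusted p = 0.00456) and SLC39A10 downward (-0.29, edgeR adjusted p = 0.013). Of the 11 alternative fits, in which the scaling, filter, tool or samples were changed, SLC39A11 passed in 11 and SLC39A10 in 8, the other 3 being those without vehicle replicate 1, vehicle replicate 2 or Liq replicate 1. SLC39A14, which imports zinc and iron, had 0.19 and did not pass (edgeR adjusted p = 0.0558), and the median over the 11 was 0.12.

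Of 7 other genes known as targets of the MTF1 protein, all were tested, 0 were called by edgeR or by DESeq2, and 3 passed the adjusted p-value downward (5 had an unadjusted p-value under 0.05). Among all tested genes 6.45% were called, 11.3% passed downward and 36.1% had an unadjusted p-value under 0.05. The 3 were SLC39A10, which the MTF1 protein represses when zinc is high, C11orf31 (now SELENOH), a selenoprotein gene with a log2 fold change of -0.36, and CSRP1, a LIM-domain protein gene with -0.21. C11orf31 passed in 9 of the 11 alternative fits, but not without vehicle replicate 1 (edgeR adjusted p = 0.279) or Liq replicate 2 (edgeR adjusted p = 0.128). CSRP1 passed in 8, but not with offsets along the expression level or without either vehicle sample (edgeR adjusted p = 0.0764 to 0.301). GCLC, the catalytic subunit of glutathione synthesis, had 0.22 and missed the threshold (edgeR adjusted p = 0.0508), and the growth factor gene PGF had -0.29 (edgeR adjusted p = 0.0625). Each of these 2 passed in 5 of the 11 alternative fits, GCLC upward and PGF downward. The median of the list was -0.21. SLC30A1 and MT1E, targets of the same factor, had passed upward in these libraries. The other tested metallothioneins, MT1X (0.27), MT2A (-0.10) and MT1M (-0.20), had not passed.

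Copper is held by the same proteins. Of 9 tested genes of copper transport and delivery 0 were called by edgeR or by DESeq2, 2 passed the adjusted p-value upward and 2 downward (5 had an unadjusted p-value under 0.05). The shares of all tested genes were 6.45% called, 12.6% upward, 11.3% downward and 36.1% with the unadjusted p-value. CCS, which hands copper to superoxide dismutase, had a log2 fold change of 0.43 and the copper exporter gene ATP7B one of 0.28. The copper chaperone gene ATOX1 had -0.30 and SCO2, which serves cytochrome oxidase, had -0.34. Of the 11 alternative fits, CCS passed in 10, ATOX1 in 9, SCO2 in 8 and ATP7B in 5. DESeq2 did not pass ATP7B (adjusted p = 0.125) or SCO2 (adjusted p = 0.107), and without vehicle replicate 1 none of the 4 passed (edgeR adjusted p = 0.054 to 0.502). The importer gene SLC31A1 was at 0.20 and did not pass (edgeR adjusted p = 0.0874), and the median over the 9 genes was -0.01.

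Among 8 stress genes that toxic metals induce, HMOX1, which encodes heme oxygenase, was the 1 called, against 6.45% of all tested genes. It had 394 and 338 counts with vehicle and 680 and 1049 with Liq, and rose from 9.31 ± 0.392 to 20 ± 1.26 CPM (SD, n = 2), with a log2 fold change of 1.11 (SE 0.11, edgeR adjusted p = 1.23e-08). The inducible chaperone genes HSPA1A and HSPA1B passed upward with 0.41 and 0.46, but they are near-identical copies and their counts are uncertain. HSPA8, the constitutive chaperone, passed downward with -0.40. HSPH1, DNAJB1 and BAG3 had 0.02, -0.01 and 0.19 and did not pass, nor did HSPA6, which had 16 to 34 counts. Thus 3 of 8 passed upward and 1 downward, against 12.6% and 11.3% of all tested genes, and the median log2 fold change was 0.18. HSPA1A and HSPA1B, both among the 3, are not separate results.

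Of the glucocorticoid receptor gene and its known targets, 7 of 8 were tested, and 2 passed the adjusted p-value downward and 0 upward. Among all tested genes 11.3% passed downward, 12.6% upward and 6.45% were called. SGK1, a kinase gene, was the 1 called, falling from 198 ± 10 to 97.2 ± 1.71 CPM (SD, n = 2), with a log2 fold change of -1.03 (SE 0.07, edgeR adjusted p = 5.33e-11). DUSP1 passed with -0.21 (in 6 of the 11 alternative fits), while FKBP5, TSC22D3, PER1 and KLF9 had log2 fold changes between -0.01 and 0.07 and did not pass. The 9 genes picked from both sides of the metallothionein cluster included 6 tested genes, of which 2 passed the adjusted p-value upward and 0 downward. Those shares of all tested genes are given above, and 36.1% of all tested genes had an unadjusted p-value under 0.05. HERPUD1, a gene of the endoplasmic reticulum stress response, passed upward with a log2 fold change of 0.30 (in 9 of the 11 alternative fits, but not without either vehicle sample), and 0 were called by edgeR or by DESeq2 (4 had an unadjusted p-value under 0.05). The nearer neighbours BBS2 and NUP93 had -0.03 and 0.03 and did not pass, and the median log2 fold change was 0 both here and among the glucocorticoid genes.

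**Figure D5:**
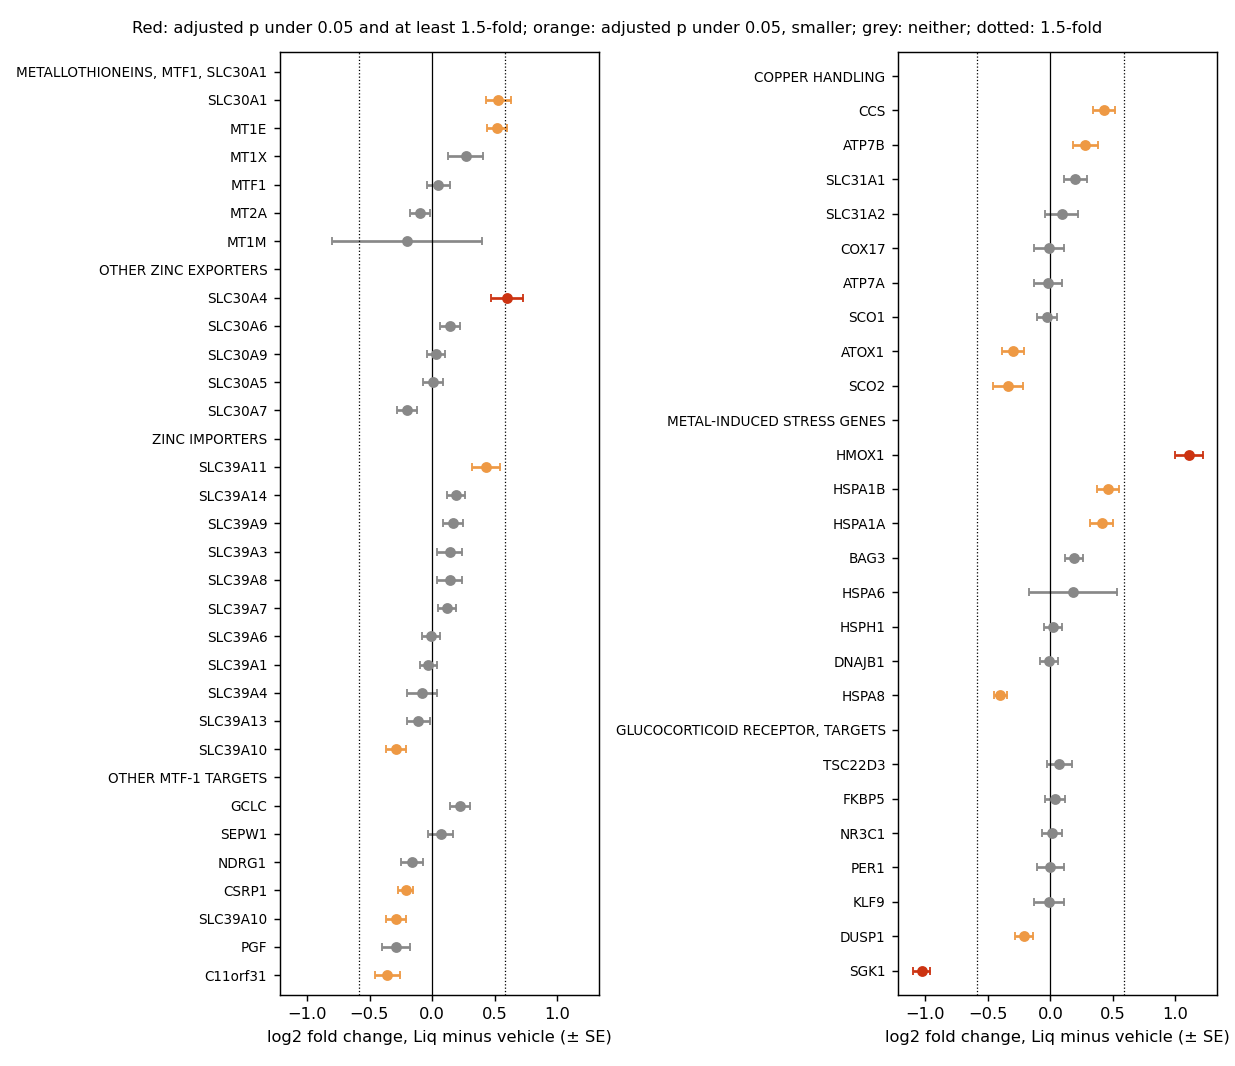
Log2 fold change (x axis, Liq minus vehicle, with SE bars) of the tested genes of 7 lists, without the genes beside the metallothionein cluster. Red points had an adjusted p under 0.05 and at least 1.5-fold (SLC30A4, HMOX1 and SGK1), orange points an adjusted p under 0.05 with a smaller change, and grey points neither, and dotted lines mark 1.5-fold.

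The tested genes outside the 9 whose pattern over the 4 samples lay nearest to that of MT1E, by the root mean square distance of centred log2 CPM, were SPSB2, UBXN11, COL5A1, UAP1L1 and GMPPB, at 0.013 to 0.020. SPSB2, the nearest, had 10.17 and 9.803 CPM with vehicle and 15.27 and 13.61 with Liq. The collagen gene COL5A1 had 32.76 and 31.68 CPM against 49.63 and 44.15. Over 4 samples many genes can share such a pattern, and the likeness is given as a description.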

How the data were processed

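RNA-seq libraries from ES2 cells treated with vehicle or Liq for 24 h (2 per group, groups and replicate numbers from the sample labels) were sequenced as 100-base single-end reads. According to the labels the authors used bcl2fastq 2.17.1.14, aligned reads to hg19 with TopHat2 2.0.8b and counted them with HTSeq. The authors deposited raw counts per gene symbol without normalization, filtering or pooling. The HTSeq version, annotation and strand setting are not given in the sources used here, so reads from a gene and an antisense partner cannot be told apart. The 5 closing lines of each table, which tally uncounted reads, were left out.

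Differential expression was tested with edgeR 4.0.16 in R 4.3.3 (filterByExpr with a minimum count of 10 and total of 15, TMM, glmQLFit and glmQLFTest, Benjamini-Hochberg adjustment over all tested genes, no replicate block). The SE is the log2 fold change over the root of F. The thresholds of the study, 1.5-fold and p under 0.05, were used with adjusted p-values. In counts simulated for this comparison over 13442 genes, recovery meant an adjusted p-value under 0.05 in the right direction, without the fold threshold. By that measure 93 of 100 genes changed by 2-fold and 79 of 100 changed by 1.5-fold were recovered, and 11 unchanged genes also passed. How many would be called with the fold threshold was not measured. Lengths and coordinates are from GENCODE v44 on GRCh37, the same build as hg19. Same-numbered samples had a correlation of 0.0483 between their deviations from the group means.

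The 9 genes, the lists and the tests were chosen with earlier results of these data known. Named were the 9 genes, called genes of the lists, up to 3 more genes per list by p-value with a few further members added after their values were seen, and the 5 genes nearest in pattern to the member with the smallest p-value. Alternatives were other scalings, filters and thresholds, DESeq2 1.42.0, loess offsets with a span of 0.3, the replicate block and each sample left out in turn. Some genes of the lists are not reported here.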

Additional observations from a re-analysis of the deposited data

How the results depend on the processing

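With the fold threshold of 1.5 and an adjusted p-value under 0.05, 874 genes were changed, against 566 with the DESeq2 Wald test, 328 when 2-fold was required and 3245 with no fold-change threshold. With offsets along the expression level the split was 357 upward and 386 downward in place of 581 and 293. Of the 9 zinc response genes 0 were called, and 2 with no fold-change threshold. Leaving out each sample in turn gave 0 to 1, the 1 being MT1E without Liq replicate 2. Of the 52 tested genes of the other lists 3 were called, against 6.45% of all tested genes. With no fold-change threshold 17 of them passed, 9 upward and 8 downward, against 24% of all tested genes. The log2 fold change changed sign for MT2A (-0.27 to 0.05) and MT1M (-1.10 to 0.51) among the fits that each left out 1 sample. MT1E and SLC30A1 passed the adjusted p-value in all 11 alternative fits, with the same direction. The summed metallothionein level was 1.08 to 1.15 times the vehicle level under all 4 scalings, and its groups overlapped in all but that by library size alone.

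The labels give a replicate number and do not say whether same-numbered samples were handled together. With the replicate number as a block 898 genes were changed, 0 of the 9 genes were called and 2 passed the adjusted p-value. In that fit the SE of MT1E and of MT2A was 0.05 each, against 0.08 without the block. MT1M, MT1F and MT1G, with at most 12 counts in a library, are limited by depth.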
